A study of Mus musculus with 6 samples.

Results

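The clustered protocadherins, the cell-surface adhesion genes encoded in the alpha, beta and gamma clusters on mouse chromosome 18, were followed in cultured cortical neurons labelled wild type or KDM6B knockout. They were found by symbol: Pcdha, Pcdhb or Pcdhg followed by an isoform number or letter. The rule gave 59 of the 20040 entries in the expression table: 15 alpha, 22 beta and 22 gamma entries. All 59 passed the filter on low values.

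The study compared C57BL/6 cortical cultures made from embryos at embryonic day 18, with 3 messenger RNA libraries labelled wild type (WT) and 3 labelled KDM6B knockout (KO). KDM6B is a histone demethylase that acts on the repressive methyl mark of histone H3 lysine 27. The labels do not give how the knockout was made, which part of the gene was deleted, how long the cells were cultured or whether the libraries came from separate embryos. The p-values therefore reflect library-to-library spread alone, and that spread may be technical.

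Each alpha and gamma isoform starts at a promoter and a large variable exon of its own, which is spliced to constant exons shared by the whole cluster. Each beta gene is a single coding exon with no constant exon. A neuron transcribes a small, largely random choice of these promoters, a choice that involves CTCF, cohesin and DNA methylation, whereas the C-type isoforms are expressed more broadly. The proteins bind the same isoform on a facing membrane, and this homophilic recognition underlies self-avoidance of dendrites and axons.

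The level of the targeted gene was checked against the labels. Kdm6b stood at 30.9, 30.3 and 30.7 TPM (transcript abundance scaled by gene length and library total) in the WT libraries and at 11.2, 11.1 and 12.0 TPM in the KO libraries, so every KO library was below every WT library. The libraries held at least 19761714 to 23503660 counts. Ddx3y, a gene of the Y chromosome, was at 25.9 to 26.3 TPM across WT and at 0.0652 to 0.191 TPM across KO, so the sex makeup of the libraries and the genotype cannot be told apart in any result here. At an adjusted p below 0.05 (limma, Benjamini-Hochberg over all genes), 4.15% of the 14983 genes tested were called higher (622) and 6.74% lower (1010), or 10.9% in either direction. After scaling each library to its median gene the split was 867 higher and 767 lower. The median log2 fold change of all tested genes was -0.02, and median scaling moved it by 0.03.

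The summed level of the members was taken for each cluster, without a test. The beta sum was 211, 214 and 219 TPM in WT against 229, 231 and 229 TPM in KO, and KO stood at 107.2% of WT ± 2.03 (SD, n = 3 per group). No KO library overlapped with WT for this sum. The alpha sum of KO was 99.2% of WT ± 2.72 and the gamma sum 100.1% ± 3.51, and in both clusters the groups overlapped. The alpha and gamma sums count reads of the shared exons once for each row, so they describe the cluster and not the number of transcripts. They are therefore not the same measure as the beta sum. In bulk RNA, a change in the number of cells that express a gene and a change in RNA per cell cannot be told apart.

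**Figure D1:**
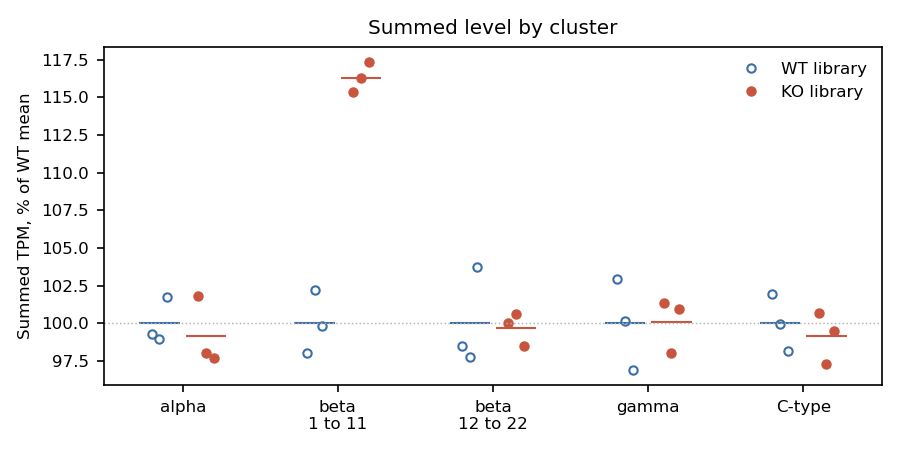
Summed TPM of the members in each library, as percent of the WT mean, for the alpha cluster, beta genes 1 to 11, beta genes 12 to 22, the gamma cluster and the 5 C-type isoforms; open points are WT libraries, filled points KO libraries, and bars are group means. The axis does not start at 0. The KO libraries lie apart from WT for beta genes 1 to 11 (116.3% of WT) and overlap with WT in the other groups. The beta genes were divided after the values were seen.

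In the beta cluster, 3 of 22 genes rose in KO and 0 fell. Over all genes tested 4.15% were called higher, and the median log2 fold change of the 22 beta genes was 0.07 against -0.02 for all genes. At an unadjusted p below 0.05, 6 beta genes were higher and 0 lower, against 10.3% and 16.2% of all genes. With limma's voom on recovered counts, 4 were called higher and 0 lower, against 7.9% of all genes called higher by that method. The groups did not overlap for 8 beta genes, all higher in KO, while of all genes 31.7% had groups that did not overlap, 12.5% with KO above WT.

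Pcdhb9, the beta gene with the highest mean level over all 6 libraries, was at 17.6, 19.8 and 17.7 TPM across WT and 22.7, 24.5 and 21.3 TPM across KO. Every KO library was above every WT library, and KO was at 124.2% of WT. On the log2 scale KO exceeded WT by 0.30 ± 0.07 (SE), with a limma adjusted p of 0.029. The gene is a single exon on chromosome 18 from 37400855 to 37403909 (GRCm38), and 384 to 592 counts per library stood behind these values. Its share of the summed beta TPM was 8.58% ± 0.606 in WT and 9.93% ± 0.666 in KO (SD, n = 3). Its call was lost without WT replicate 1 or 3 or KO replicate 1 or 2 (adjusted p up to 0.104), and without a variance trend (0.0695).

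Pcdhb2 lies near the start of the cluster, at 37294840 to 37297614. It was at 8.94, 9.44 and 8.93 TPM across WT and 11.4, 10.9 and 12.0 TPM across KO. The groups did not overlap, and KO was at 125.3% of WT with a log2 fold change of 0.31 ± 0.06 (adjusted p = 0.0215). The call rests on 177 to 239 counts per library and was lost without WT replicate 1 or 3 or KO replicate 1 or 3 (adjusted p up to 0.0782).

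Pcdhb10, the next gene after Pcdhb9, spans 37411674 to 37414514. It was at 8.39, 7.74 and 8.26 TPM across WT and 9.37, 10.4 and 10.7 TPM across KO. Here too the KO libraries lay above WT, with a log2 fold change of 0.30 ± 0.07 (adjusted p = 0.0406) from 152 to 233 counts. The call was kept without KO replicate 1 and lost without any other library (adjusted p up to 0.122), and it was lost with no filter on low values (0.0733).

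The largest difference in the cluster did not pass the test. Pcdhb3, at 37300799 to 37304585, was at 7.48, 7.72 and 7.36 TPM across WT and 8.91, 9.48 and 12.2 TPM across KO. All KO libraries were above WT, but KO replicate 3 stood far above the other two. The log2 fold change was 0.40 ± 0.11 (adjusted p = 0.0603) and was 0.27 without that library. It passed with voom (adjusted p = 0.00171), a filter at 2 TPM (0.0491), a robust variance trend (0.0435) and quantile normalization (0.0482).

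At the other end of the range, Pcdhb15 was at 6.57, 5.95 and 6.10 TPM across WT and 5.09, 5.97 and 5.41 TPM across KO. The groups overlapped, and the log2 fold change of -0.17 ± 0.09 did not pass (adjusted p = 0.299). Pcdhb20, the most abundant beta gene in WT, was at 18.6 ± 0.598 TPM across WT and 18.9 ± 1.15 TPM across KO (SD, n = 3), a difference smaller than the spread. Pcdhb1 was the lowest gene, with 12 to 27 counts per library, and a difference of the size seen in Pcdhb9 was not detectable at that depth: its log2 fold change was 0.14 ± 0.24.

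**Figure D2:**
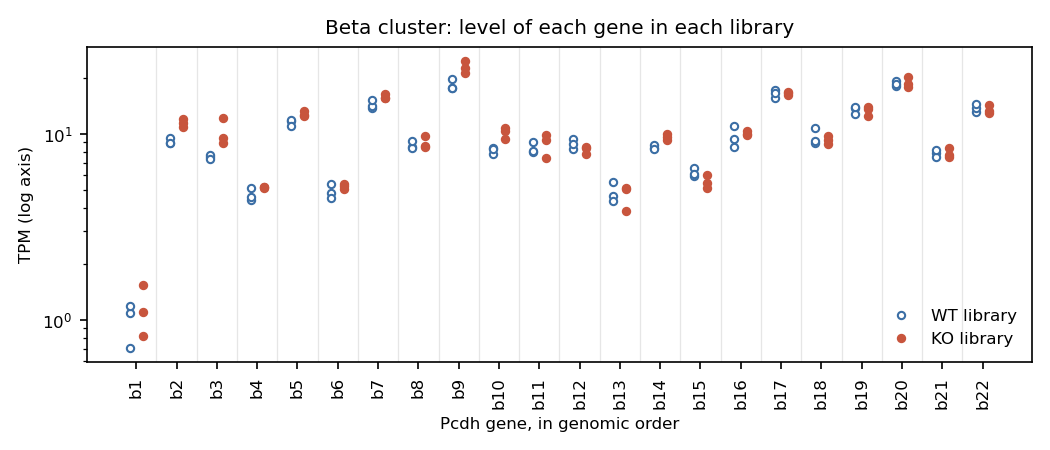
TPM of each of the 22 beta genes (log axis, genes in genomic order) in each WT library (open points) and KO library (filled points). Levels run from about 1 TPM for Pcdhb1 to above 20 TPM for Pcdhb9 in KO, and KO lies above WT without overlap for Pcdhb2, 3, 4, 5, 7, 9, 10 and 14.

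The beta differences are given along the cluster in groups of 11 genes, a division made after the values were seen. Of the 11 genes nearest the alpha cluster, Pcdhb1 to Pcdhb11 (37264998 to 37425032), all 11 had a log2 fold change above 0, with a median of 0.14. Their summed level was 94.7, 98.8 and 96.4 TPM across WT and 111.4, 112.3 and 113.4 TPM across KO, so KO was at 116.3% of WT ± 2.64. Of the 11 genes toward the gamma cluster, Pcdhb12 to Pcdhb22 (37435621 to 37521419), 4 were above 0 and 7 below, with a median of -0.02. Over all genes tested, 43.3% were above 0. Groups set after the values were seen cannot be tested against that share. The sum of these distal genes was 116.0, 115.1 and 122.1 TPM across WT and 117.8, 118.5 and 115.9 TPM across KO, 99.7% of WT ± 3.43. After median scaling these percentages were 118.4 for the proximal and 101.5 for the distal genes.

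All 3 beta genes that passed lie in the proximal group, as do 7 of the 8 whose libraries did not overlap. The exception was Pcdhb14, at 8.46 ± 0.194 TPM across WT and 9.61 ± 0.357 TPM across KO (SD, n = 3; adjusted p = 0.131). Of all genes tested, 4.15% were called higher and 12.5% had KO above WT without overlap. As single libraries were left out, 0 to 2 beta genes were called higher. Spearman's rank correlation between genomic order and log2 fold change was -0.69 over the 22 beta genes, which share the same 6 libraries. It ran from -0.73 to -0.50 as single libraries were left out. The corresponding value was -0.08 over 14 alpha genes and -0.19 over 22 gamma genes, and 0.32 between order and mean level in the beta cluster. The division into groups of 11 was made after the values were seen, and the difference between the groups was not tested.

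**Figure D3:**
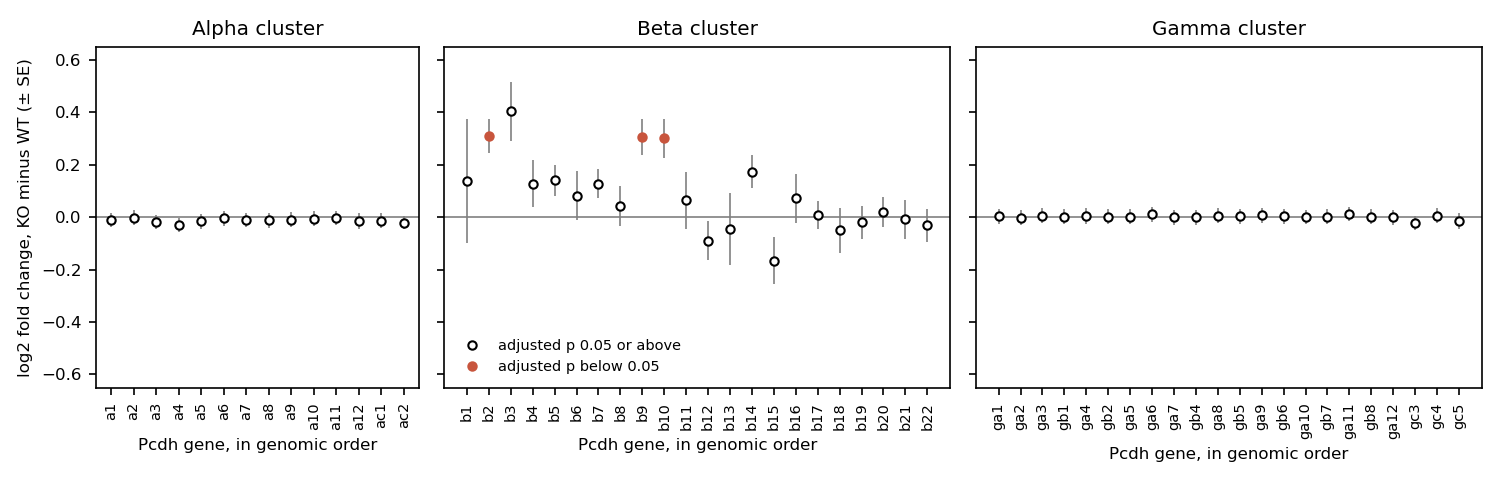
Log2 fold change on the log2(TPM + 0.5) scale, KO minus WT, with its SE, for each alpha, beta and gamma gene in genomic order; filled points have an adjusted p below 0.05. Filled points occur at Pcdhb2, Pcdhb9 and Pcdhb10, the first 11 beta genes lie above 0, and the alpha and gamma rows as deposited lie between -0.03 and 0.01.

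The deposited alpha and gamma rows gave 0 calls in either direction, where 10.9% of all genes tested were called. Of 15 alpha entries, 0 had an unadjusted p below 0.05, and the lowest adjusted p was 0.546. The same count was 0 of 22 in gamma, with a lowest adjusted p of 0.655, and voom called 0 in both clusters. Of all genes tested, 10.3% were higher and 16.2% lower at an unadjusted p below 0.05. Rows of a cluster carry nearly the same counts, so they do not stand for separate tests. The largest and smallest log2 fold changes were -0.001 (Pcdha2) and -0.03 (Pcdha4) in alpha, and 0.01 (Pcdhga11) and -0.02 (Pcdhgc3) in gamma. These signs depend on the scaling, since median scaling alone moves all genes by 0.03.

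The rows of these clusters were nearly copies of each other. Within a library the highest and lowest alpha gene differed in recovered counts by 1.26-fold to 1.30-fold, and the gamma genes by 1.30-fold to 1.33-fold. Beta genes differed by 18.4-fold to 37-fold. The gene lengths behind the TPM values include the constant exons: Pcdha1, for example, had a length of 5248 nucleotides, of which 2388 are its own variable part. The remaining 2860 are the 3 constant alpha exons (37156155 to 37156213, 37159265 to 37159353 and 37184946 to 37187657). The gamma constant exons hold 2119 nucleotides (37825021 to 37825079, 37833265 to 37833353 and 37839903 to 37841873). The rows of a cluster are therefore close to 1 shared measurement and not separate tests of each isoform. The entry named Pcdha4-g, a RefSeq model that runs from the alpha into the gamma cluster, was at 163.4 ± 4.43 TPM across WT and 161.7 ± 1.53 TPM across KO (SD, n = 3).

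To look at the isoforms themselves, the counts of the lowest member of each cluster were taken off the other members, a step added after the data were seen. Pcdha8 was lowest in alpha and Pcdhgb8, annotated as a pseudogene, in gamma, in all 6 libraries. Reads of the shared exons then cancel if each was counted once in every row, a setting no source states. What remains is a lower limit on the reads of the variable exon, and reads of the lowest member itself would bring the ratios nearer to 1 if they were the same in both groups. If those reads differed between WT and KO, the remainders of all other members of the cluster would shift in the same direction. The remainder was 1.39% to 5.95% of the row counts for the numbered alpha isoforms and 0.942% to 7.45% for the gamma A and B isoforms.

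Per length of variable exon, the C-type isoforms covered the widest range. Pcdhgc3 had the highest mean level, at 208.0 TPM, and Pcdhac1 the lowest, at 1.58 TPM. The median of the numbered alpha isoforms was 13.6 TPM (5.02 to 21.8), that of gamma A 20.2 TPM (11.9 to 53.8) and that of gamma B 10.2 TPM (6.86 to 17.0). The beta genes, measured per length of the whole gene, had a median of 9.09 TPM (1.07 to 20.6). Summed over the cluster, the remainder in KO was 99.0% of WT in both alpha and gamma, within the spread of the libraries.

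**Figure D4:**
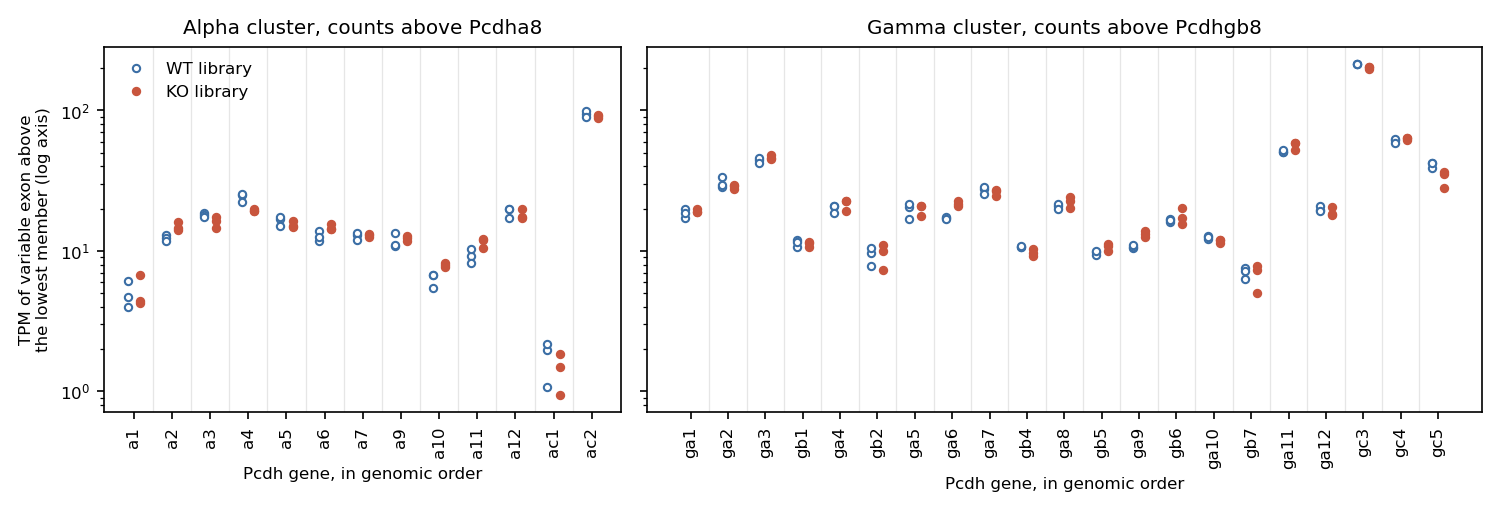
TPM of the variable exon above the lowest member of the cluster (log axis) for 13 alpha and 21 gamma isoforms in genomic order, in WT libraries (open points) and KO libraries (filled points). Pcdhac2 and Pcdhgc3 stand above all other isoforms of their clusters and Pcdhac1 below, and WT and KO lie apart for 5 alpha isoforms (Pcdha4 lower in KO, Pcdha2, 6, 10 and 11 higher) and 8 gamma isoforms (Pcdhga6, ga9, ga11 and gb5 higher, Pcdhga10, gb4, gc3 and gc5 lower). In the deposited values 31.7% of all genes tested had groups that did not overlap, 12.5% with KO above WT and 19.2% below.

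On this measure 0 of 13 alpha isoforms were called higher and 1 lower, and 2 of 21 gamma isoforms were called higher and 1 lower. Of all genes tested in the same fit, 10.9% were called in either direction. Pcdhga6 was at 17.0, 17.6 and 16.8 TPM across WT and 22.7, 20.8 and 21.6 TPM across KO. It rose to 126.5% of WT, with a log2 fold change of 0.33 ± 0.05 (limma adjusted p = 0.006), and kept its call as each library was left out (adjusted p 0.0148 to 0.0301). With the next lowest member taken off instead, the log2 fold change was 0.54.

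Pcdhga9 was at 10.5, 10.6 and 10.98 TPM across WT and 13.2, 12.5 and 13.9 TPM across KO. It rose to 123.3% of WT (adjusted p = 0.024), and the groups did not overlap. The call was kept without KO replicate 2 and lost without any other library (adjusted p up to 0.0847).

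Pcdha4 was the alpha isoform that fell. It was at 24.8, 25.3 and 22.2 TPM across WT and 19.3, 19.3 and 19.7 TPM across KO. All KO libraries lay below WT, at 80.5% of its mean (log2 fold change -0.30 ± 0.06, adjusted p = 0.0142). Without WT replicate 1 or 2 or KO replicate 2 the adjusted p was 0.0511 to 0.0634. Pcdha2 (120.2% of WT, adjusted p = 0.0545), Pcdha6 (115.3%, 0.134), Pcdha10 (126.4%, 0.0805) and Pcdha11 (124.4%, 0.0895) were above WT in every KO library but did not pass. In the deposited values 12.5% of all genes tested had KO above WT without overlap.

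Among the C-type isoforms, Pcdhgc3 was at 215.6, 215.2 and 214.4 TPM across WT and 202.6, 198.0 and 202.3 TPM across KO. It fell to 93.4% of WT (log2 fold change -0.10 ± 0.02, adjusted p = 0.0266), with no overlap between the groups. The call was lost without any 1 of the 6 libraries (adjusted p 0.0522 to 0.0938), with median scaling (0.0746) and without a variance trend (0.105).

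Pcdhgc5 was at 42.6, 38.7 and 42.3 TPM across WT and 35.2, 27.9 and 36.3 TPM across KO. The groups did not overlap, and KO was at 80.4% of WT, but the difference did not pass (adjusted p = 0.0728). With the next lowest member taken off instead it did (0.0377). Pcdhac2 was at 94.3 ± 5.01 TPM in WT and 91.1 ± 2.01 in KO (SD, n = 3). Pcdhgc4, a C-type isoform needed for survival of many neurons, was at 61.2 ± 2.41 and 62.9 ± 1.08 TPM. For both the groups overlapped and the difference did not pass (limma adjusted p = 0.523 and 0.545). Pcdhac1, with 18 to 40 counts, was too low for a difference of this size to be detected.

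**Figure D5:**
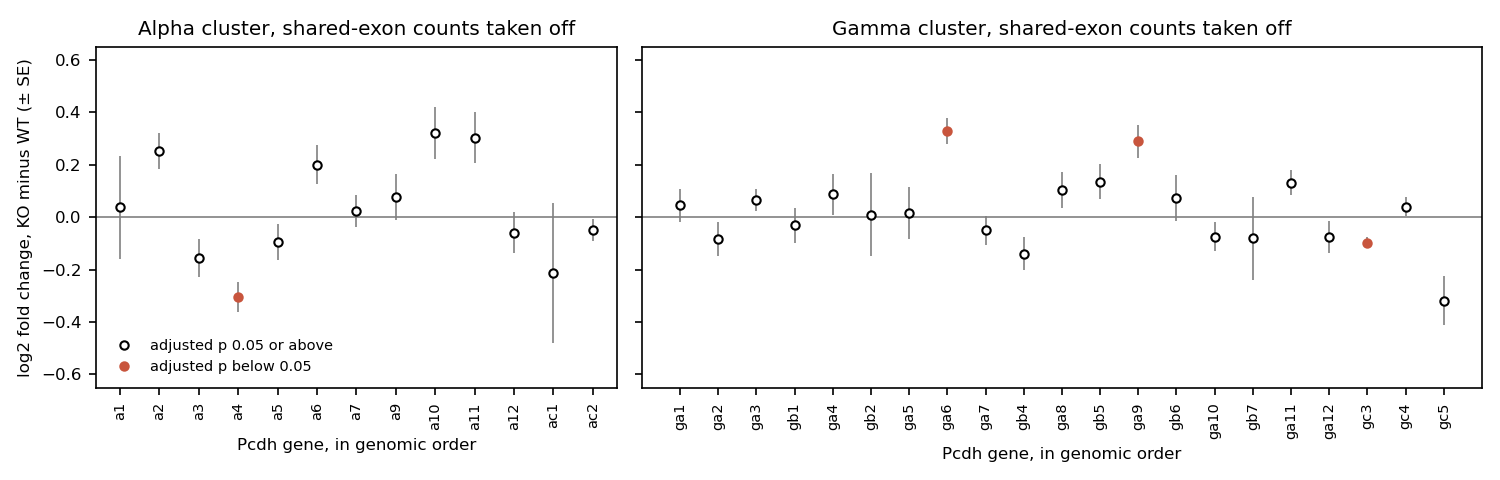
Log2 fold change, KO minus WT, with its SE, of the alpha and gamma isoforms after the counts of the lowest member were taken off, in genomic order; filled points have an adjusted p below 0.05. Pcdhga6 and Pcdhga9 lie above 0 and Pcdha4 and Pcdhgc3 below, with members of both directions next to each other along both clusters.

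Of 22 listed genes around the clusters, 19 were tested, 1 rose and 1 fell, against 4.15% of all genes called higher and 6.74% lower. Rell2 was at 113.5 ± 5.32 TPM in WT and 125.5 ± 0.542 in KO (adjusted p = 0.0375). Pcdh1, a non-clustered protocadherin, was at 117.9 ± 0.942 and 106.7 ± 3.08 TPM (adjusted p = 0.0179). Taf7, a transcription factor TFIID subunit gene between the beta and gamma clusters, was at 12.6 ± 1.68 and 13.1 ± 0.636 TPM and did not pass. These values are means ± SD with n = 3. The call of Rell2 was kept without WT replicate 1 and lost without any other library (adjusted p up to 0.111), and also with no filter (0.0544) or no variance trend (0.109). That of Pcdh1 was lost without WT replicate 1 or 3 or KO replicate 1 or 2 (up to 0.0665), and with no variance trend (0.0677).

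Of 23 genes for chromatin proteins and factors of promoter choice, 0 were called higher and 1 lower, against the same 4.15% and 6.74% of all genes. Dnmt3a, a DNA methyltransferase, fell from 142.4 ± 3.25 TPM in WT to 130.0 ± 1.71 in KO (SD, n = 3; adjusted p = 0.020). The call was lost without WT replicate 1 or 3 or KO replicate 2 or 3 (up to 0.0765), and with no variance trend (0.0768). Ctcf, the insulator protein bound at these promoters, was at 61.4 ± 1.90 and 60.7 ± 1.33 TPM and did not pass.

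Of 21 genes for partner and downstream proteins, 1 was called higher and 2 lower, where 10.9% of all genes were called in either direction. Ptk2b, the kinase Pyk2 that clustered protocadherins bind and restrain, fell from 80.2 ± 1.19 to 59.9 ± 2.58 TPM, to 74.7% of WT (SD, n = 3; adjusted p = 0.000663). Wasf1, a subunit of the WAVE complex that drives actin assembly, fell from 343.0 ± 1.06 to 313.1 ± 3.66 TPM (adjusted p = 0.00641, and 0.0526 with no variance trend). Nlgn1, a postsynaptic adhesion protein, rose from 61.6 ± 1.96 to 70.5 ± 1.08 TPM (adjusted p = 0.00964). These 3 calls held as each library was left out.

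Some cell type markers also differed between WT and KO. The summed level of 6 neuron markers was 6059 to 6089 TPM in WT against 6310 to 6408 TPM in KO, with 1 called higher (Tubb3) and 1 lower (Rbfox3). Tubb3 (1751 TPM in WT and 1959 in KO), Stmn2 (2031 and 2129) and Map2 (740 and 779) had higher means in KO. Means of Snap25 (747 and 718) and Rbfox3 (98.9 and 86.1) were lower, and Syt1 was at 702 in both groups. For 7 astrocyte markers the summed level was 1494 to 1506 and 1440 to 1556 TPM, with 1 called higher (Slc1a3, the most abundant) and 1 lower (Aldh1l1). The median log2 fold change of these 7 was -0.18, and Gfap, Aqp4, S100b and Gja1 were also below WT in every KO library without passing. For 5 fibroblast or meningeal markers it was 35.2 to 36.3 and 45.1 to 57.6 TPM, and 3 were called higher (Col1a1, Dcn and Lum). The share of all genes tested was 4.15% called higher and 6.74% lower. The call of Tubb3 was lost without WT replicate 2 or KO replicate 2 or 3 (adjusted p up to 0.0705), that of Col1a1 without WT replicate 3 (0.0506) and that of Dcn without any library but KO replicate 2 (up to 0.118).

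The 4 Cajal-Retzius markers summed to 105.7 to 106.7 TPM across WT and 120.4 to 125.4 TPM across KO, with Reln called higher. Reln held nearly all of that sum (105.0 ± 0.538 TPM in WT and 122.0 ± 2.28 in KO, SD, n = 3). Trp73 (0.652 TPM in WT and 0.645 in KO), Lhx1 (0.151 and 0.187) and Lhx5 (0.427 and 0.427) overlapped between the groups. The 5 endothelial markers summed to 10.2 to 11.9 and 7.45 to 8.31 TPM, with Kdr called lower. Kdr held most of that sum (9.21 ± 0.828 TPM in WT and 5.62 ± 0.576 in KO, SD, n = 3). Pecam1 (1.14 TPM in WT and 1.06 in KO) and Flt1 (0.269 and 0.251) overlapped between the groups. So did Cldn5 (0.102 and 0.134) and Cdh5 (0.328 and 0.877), whose means were higher in KO. The microglial sum was 1.2 to 1.8 and 1.56 to 2.70 TPM and the serotonergic sum 0.544 to 0.748 and 0.670 to 0.980 TPM, each with 1 marker high enough to test and 0 called. None of the markers in these lists was at 0 in all libraries, and the part of these cell types in the protocadherin values was not tested.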

How the data were processed

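Messenger RNA of 3 WT and 3 KO libraries was measured. The authors deposited TPM per gene and library; edgeR, featureCounts, TopHat, Picard 1.127, bcl2fastq 2.17, FastQC 0.11.2 and the build mm10 are named in the submitters' processing notes, without roles. Not given in the sources used here are the annotation, the strand setting, the scaling step and the treatment of reads that fit several genes. Near-identical beta genes, the shared alpha and gamma exons and antisense genes are therefore uncertain.

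KO was compared with WT by limma 3.58.1 (R 4.3.3) on log2(TPM + 0.5), with a variance trend, no covariates and Benjamini-Hochberg adjustment at 0.05 over all genes whose mean reached 0.5 TPM. This scale understates folds of low genes. Percent of WT is the ratio of mean TPM. The fit was also run on simulated data with independent genes and the same spread setting for all genes. That setting differs from the alpha and gamma rows, which carry nearly the same counts, and from the subtracted values. The members and the contents of the 11 gene lists were chosen with earlier results of these data known, and the result of 1 list is not reported here.

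TPM values fell on whole multiples of 1 count for 19369 of 19369 entries above 0 (tolerance 0.001 counts plus 5e-09 of the value). Each length was the first in a wide search that gave whole counts, so for entries above 0 in few libraries this shows little. The protocadherin entries were above 0 in every library. Totals are lower limits because a factor common to all counts of a gene is lost. Of 22 beta genes, 19 had a recovered length equal to the RefSeq span. Counts covered the depth and voom, the alternative test. For alpha and gamma the counts of the lowest member were subtracted, per nucleotide of variable exon. Positions are from RefSeq (GRCm38.p6) and constant exons from GENCODE M21, both of the mm10 assembly.

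Named were members that passed, the highest, the largest rise and fall per cluster and the C-type isoforms, and list genes with the smallest p that passed. Pseudocount, filter, variance trend, scaling, replicate block and left-out libraries were varied.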

Additional observations from a re-analysis of the deposited data

How the results depend on the processing

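No summed level moved by more than its spread under any alternative, and no named gene that passed changed direction, listed neighbour, pathway and marker genes included. The number of all genes called higher and lower was 406 and 658 without a variance trend, and 1183 higher with voom. Leaving out 1 library gave 345 to 440 higher and 493 to 678 lower. Beta genes called higher then numbered 0 to 2. With the shared-exon counts taken off, which was chosen after seeing the data, 1 alpha isoform was lower and 2 gamma isoforms higher and 1 lower, against 0 in the deposited rows. On that measure alpha isoforms called higher were 1 with a filter at 2 TPM, a robust trend, median scaling or the next lowest reference, and 2 with quantile normalization. Gamma isoforms called lower were 0 without a trend or with median scaling, and 2 with the next lowest reference. Left-out libraries gave 0 to 1 alpha lower, 1 to 3 gamma higher and 0 to 0 gamma lower. The rank correlation of log2 fold change with genomic order ran from -0.13 to 0.19 in alpha (0.19 without WT replicate 2) and from -0.73 to -0.50 in beta. The cause of these moves was not tested.

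The labels do not say whether equal replicate numbers mark a shared litter or day. Same-numbered libraries had correlations of deviation from the group mean of 0.008, -0.05 and 0.01, and no library correlated best with its own number. These values show no effect shared by number, but they cannot show that the samples were unpaired. With the replicate block, 360 genes were higher and 585 lower, 1 beta gene was higher (Pcdhb9), and after the subtraction 1 gamma isoform was higher (Pcdhga6; Pcdhga9 had an adjusted p of 0.0588) and 1 lower (Pcdhgc5, 0.0383, in place of Pcdhgc3, 0.0891). Rell2, Pcdh1, Dnmt3a, Tubb3 and Dcn lost their calls with the block (adjusted p 0.0505 to 0.0804), and Tubb3 also with quantile normalization (0.0539). Without a variance trend Tubb3, Slc1a3 and Dcn did not pass (0.0638 to 0.0896), nor did Dcn with no filter (0.0576). Counting depth limits Pcdhb1 and Pcdhac1 most.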
